A study of Mus musculus with 4 samples.

Results

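The genes described here are 7 genes of the epithelial to mesenchymal transition (EMT): the transcription factors *Snai1*, *Snai2*, *Twist1*, *Twist2*, *Zeb1* and *Zeb2*, and *Vim*, which encodes the intermediate filament protein vimentin. They were looked up by symbol in the deposited table and are 7 of 22063 genes listed. The set was selected on measured values, since the difference between the libraries labelled Itgb6-siRNA and those labelled Scrambled was known when it was drawn up, so that difference is described for each member and not tested. *Snai1* transcript was lower in both Itgb6-siRNA libraries than in both Scrambled libraries, with 6 and 9 counts against 43 and 25. *Twist2* and *Vim* were higher in both Itgb6-siRNA libraries, *Twist1* overlapped between the groups, and *Snai2*, *Zeb1* and *Zeb2* were at or near 0 counts in every library. Whatever the group, the levels of all 7 were far below those of the epithelial keratins and cadherin of the same cells.

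In EMT an epithelial cell loosens its junctions and takes on features of a migrating mesenchymal cell. Snail and Zeb proteins are zinc finger repressors that bind E-box sequences in the promoters of epithelial genes such as *Cdh1*, which encodes E-cadherin, while Twist proteins are basic helix-loop-helix (bHLH) factors that act as dimers with E proteins. In the injured renal tubule Snail and Twist factors are known for driving a partial form of this program, in which tubule cells lose transport functions and signal to fibroblasts but stay in the epithelium.

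The cells are TKPTS cells (TKPT in the sample labels), a mouse proximal tubule epithelial line. All 4 libraries came from cells kept for 24 h in 1% O2 and then for 12 h in normal oxygen, a model of ischemia and reperfusion. The Scrambled group, replicates 2 and 3, is wild type by its label and received the control siRNA. The Itgb6-siRNA group, replicates 1 and 3, is labelled as an *Itgb6* knockdown and received an siRNA against *Itgb6*, the beta subunit of integrin αvβ6. The RNA-sequencing was made to look for the pathways by which αvβ6 acts in hypoxic tubule cells. No library of cells kept in normal oxygen throughout was analysed here, nor one of cells without transfection, so neither the effect of hypoxia nor that of transfection on these genes can be read. The study's methods describe its experiments in general as independent biological replicates. Neither they nor the labels say for the RNA-sequencing whether the 2 libraries of a group came from separate cultures. The p-values given for other genes therefore measure the spread between these samples, which may be partly technical. The methods also state that samples were optimized after a cluster analysis. If libraries were chosen by likeness, that spread and the p-values may be too small.

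Totals were 15435087 to 17220285 estimated counts per library, at which 3 counts, the limit that a count of 0 allows, is worth 0.174 to 0.194 CPM (counts scaled to the size of the library). Such floors and the counting intervals given below cover counting error only. Replicate libraries differed by more than sampling noise, with a chi-square of 3.25 per gene between the Scrambled libraries and 4.12 between the Itgb6-siRNA libraries. The transcript of the targeted gene was not clearly lower in the libraries under its own siRNA label. The study reports less αvβ6 protein by western blot in hypoxic TKPTS cells given the siRNA. The study's methods state that efficiency was checked by qPCR and western blot. *Itgb6* had 285 and 284 counts in Scrambled and 279 and 260 counts in Itgb6-siRNA, a log2 fold change of -0.01 ± 0.13 (SE) with a 95% interval of -0.27 to 0.26 and an adjusted p of 0.991 (edgeR's quasi-likelihood method, Benjamini-Hochberg adjusted), so each direction below is one between libraries carrying these labels. Of the proximal tubule markers, *Havcr1* and *Pax8* were high, at means of 132 and 128 FPKM (fragments per kilobase of transcript, scaled to library size), while *Slc34a1*, *Slc5a2* and *Hnf4a*, which mark the mature tubule, had 3 counts or fewer over the 4 libraries. The summed proximal tubule markers were at 328 to 384 FPKM, and 1 of 8 tested, *Aqp1*, was called, higher at a log2 fold change of 0.59. Endothelial markers summed to 0.686 to 2.07 FPKM, with *Emcn* and *Tie1* at 3 counts or fewer, and none was called. Macrophage and leukocyte markers summed to 91.4 to 106 FPKM, nearly all of it *Cd68* at 84.5 and *Csf1r* at 7.86, with *Adgre1* and *Itgam* at 3 counts or fewer, and none was called. The library of Itgb6-siRNA replicate 1 stood apart in a few transcripts of other cell types, with 22 counts of *Col1a1*, 14 of *Col3a1*, 11 of *Col1a2*, 5 of *Dcn* and 11 of *Lyz2*, each of which had 0 to 2 counts in every other library.

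The stretches before the transcription starts of the 3 transcription factors with enough counts to be compared are printed so that their base composition and E-boxes can be seen next to the values. Each is the 250 bases upstream of the RefSeq start in GRCm38.p6, on the plus strand, and capitals mark matches to 3 motifs searched on both strands: the Snail and Zeb E-box CACCTG, the Smad element CAGAC and the hypoxia response core ACGTG.
Snai1, chr2:167537945-167538194: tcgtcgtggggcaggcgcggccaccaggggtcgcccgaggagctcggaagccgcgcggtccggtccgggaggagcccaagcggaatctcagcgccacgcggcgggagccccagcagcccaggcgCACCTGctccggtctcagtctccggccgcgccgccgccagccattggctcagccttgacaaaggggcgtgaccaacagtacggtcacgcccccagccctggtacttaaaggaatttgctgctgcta
Twist1, chr12:33957421-33957670: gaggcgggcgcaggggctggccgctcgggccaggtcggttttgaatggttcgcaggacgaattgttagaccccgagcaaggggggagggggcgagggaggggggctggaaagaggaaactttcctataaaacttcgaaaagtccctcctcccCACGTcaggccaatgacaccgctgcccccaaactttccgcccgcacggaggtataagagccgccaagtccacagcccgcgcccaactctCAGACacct
Twist2, chr1:91801211-91801460: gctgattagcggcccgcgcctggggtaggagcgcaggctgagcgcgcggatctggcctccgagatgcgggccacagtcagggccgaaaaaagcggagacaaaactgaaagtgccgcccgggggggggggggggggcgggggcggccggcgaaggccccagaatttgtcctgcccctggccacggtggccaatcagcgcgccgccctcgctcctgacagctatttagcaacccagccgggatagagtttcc
The *Snai1* stretch held 1 E-box, starting 126 bases upstream of the start on the plus strand, a motif found in 17.2% of the 32851 stretches of this length. The *Twist1* stretch held 1 Smad element on the plus strand, starting 9 bases upstream, and 1 hypoxia response core on the minus strand, which reads CACGT as printed and starts 98 bases upstream. Those motifs were found in 42.2% and 16.6% of all stretches, and the matches did not overlap each other. None of the 3 motifs occurred in the *Twist2* stretch, in that of *Vim* or in any of the 4 entries of *Zeb2*. All 3 printed stretches are rich in GC, at 70% for *Snai1* with 27 CpG dinucleotides, 62.4% for *Twist1* with 18 and 68.8% for *Twist2* with 23. A match to a motif is a property of the sequence and no binding was measured. *Snai2* had no entry in the promoter table.

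*Snai1* encodes Snail, the zinc finger repressor that gives the family its name, and lies on chromosome 2 from 167538195 to 167542814 on the plus strand of GRCm38, with 3 exons and 1 annotated transcript of 1621 bases. Its counts were 43 and 25 in Scrambled replicates 2 and 3, and 6 and 9 in Itgb6-siRNA replicates 1 and 3. The Scrambled libraries also differed from each other, but the lower of them, at 25 counts, was above the higher Itgb6-siRNA library, at 9. On the CPM scale the means were 2.04 ± 0.841 (SD, n = 2) in Scrambled and 0.467 ± 0.112 (SD, n = 2) in Itgb6-siRNA. Deposited FPKM values were 1.64 and 0.896 in Scrambled and 0.240 and 0.333 in Itgb6-siRNA. These are low levels, near the middle of all genes listed: the mean FPKM of *Snai1* exceeded that of 51.9% of them.

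The fitted log2 fold change of *Snai1*, Itgb6-siRNA minus Scrambled, was -2.10 ± 0.52 (SE), with a 95% interval of -3.17 to -1.03, which is 4.29-fold lower in Itgb6-siRNA. Of 83 *Snai1* counts in all, 68 were in Scrambled, and the ratio of the pooled levels was 0.232 with a counting interval of 0.123 to 0.410. Among the 11727 genes tested *Snai1* was the ninth from the lowest log2 fold change. It passed the filter on low counts only through the Scrambled libraries, since its 6 and 9 counts in Itgb6-siRNA are both under the minimum of 10. The difference was smallest without Scrambled replicate 2, at -1.61, where *Snai1* no longer passed the thresholds of the study, and largest without Scrambled replicate 3, at -2.47.

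**Figure D1:**
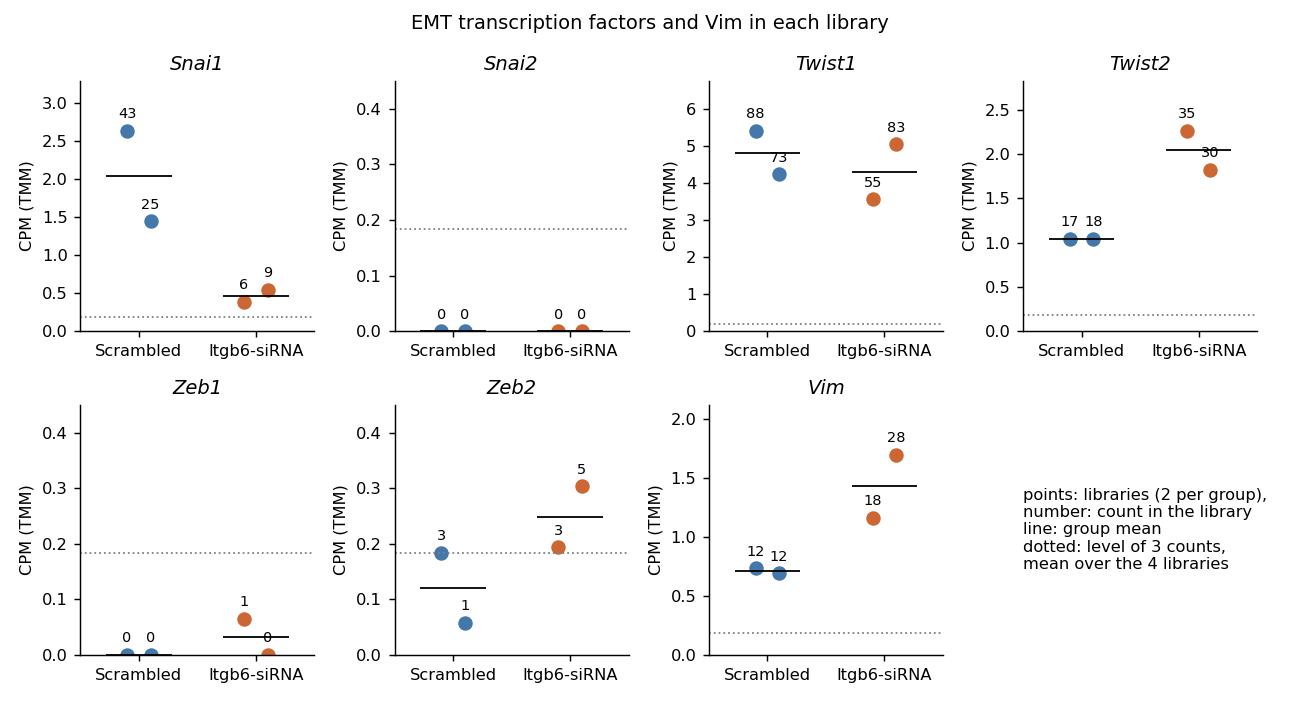
CPM of the 7 members in each of the 4 libraries, each panel with its own linear axis from 0, with the count printed at each point, the group means as lines and the level of 3 counts dotted. *Snai1* lies at 2.64 and 1.45 CPM in Scrambled and 0.387 and 0.546 CPM in Itgb6-siRNA, while *Twist2* and *Vim* are higher in both Itgb6-siRNA libraries and *Snai2* is at 0 in all 4.

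Composition of the transcripts moved with the groups and is given beside this difference. Across 11709 genes with a known transcript, log2 fold change and GC content had a Spearman's rho of -0.36, a description across genes, which are not independent replicates and share the same 4 libraries. The longest *Snai1* transcript is 59.8% GC, higher than 95.3% of the genes tested. The 1040 genes within 2 points of that GC content had a median log2 fold change of -0.12 and a 5th percentile of -0.54. Of these, 2 were lower than *Snai1*, namely *Lingo3* at -2.32 and *Gm45713* at -6.93, both named after their values were seen. *Gm45713* had 0 counts in both Itgb6-siRNA libraries, so its fitted value depends on the prior count. The window was matched on GC content only, not on level. Over the 4 libraries *Snai1* had 83 counts, *Lingo3* 89 and *Gm45713* 31, and the spread among genes of so low a level was not tested. With the trends on GC content and length removed from each library, the log2 fold change of *Snai1* was -1.98.

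**Figure D2:**
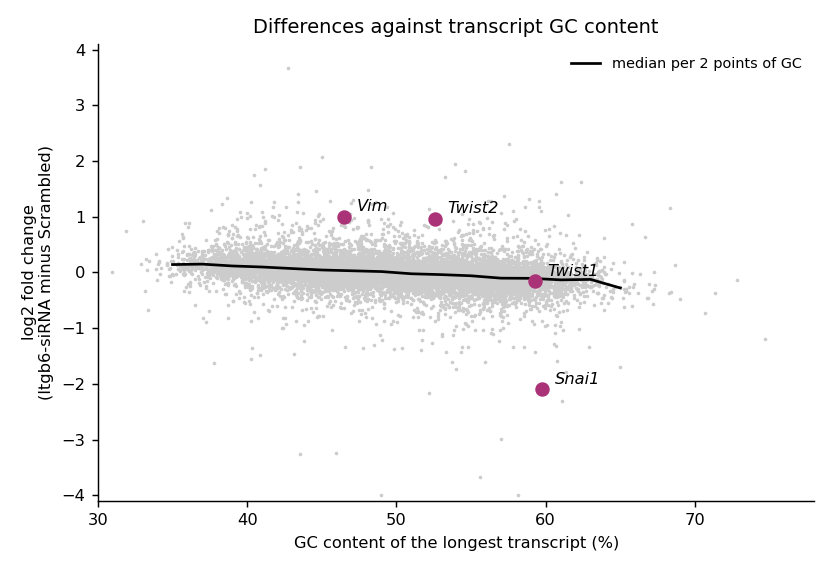
Log2 fold change (Itgb6-siRNA minus Scrambled) of the genes tested against the GC content of their longest transcript in percent, with values beyond 4 in either direction drawn at 4 and the black line giving the median per 2 points of GC in bins of at least 20 genes. The median falls as GC content rises, and *Snai1*, at 59.8% GC, lies at -2.10, below the median of -0.12 of genes of its GC content. Those genes were not matched to *Snai1* on level.

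The genes whose pattern over the 4 libraries was most like that of *Snai1* were taken by the smallest Euclidean distance between centred log2 CPM values, among tested genes with a mean of at least 1 CPM. *Dmpk*, which encodes the myotonic dystrophy protein kinase, was nearest at a distance of 0.437, with 40 and 27 counts in Scrambled against 9 and 12 in Itgb6-siRNA. Its log2 fold change was -1.60 ± 0.48 (SE). The next were *1810049J17Rik*, *Dcp1b*, a cofactor of mRNA decapping, *Chst14*, a dermatan sulfotransferase, and *Tnnc1*, the cardiac form of troponin C, at distances of 0.750, 0.841, 0.875 and 0.880. Their log2 fold changes were between -1.35 and -1.10, so *Snai1* had the largest difference of these 6 genes. Each of the 5 was lower in both Itgb6-siRNA libraries than in both Scrambled libraries, and highest in Scrambled replicate 2, as *Snai1* was. Since the likeness is to a pattern over 4 libraries that includes the group difference, these values are a description.

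Within the zinc finger family to which the deposited annotation assigns *Snai1* (zf-C2H2, a list added after the values were seen), 413 of 600 genes were tested. *Snai1* had the lowest log2 fold change of them, followed by *Zfp968* at -1.55. The family as a whole lay on the other side of 0. Its median log2 fold change was 0.11, beside 0.00 over all genes tested. At the thresholds of the study 55 of its 413 tested genes were higher and 11 lower, which is 16% called. Over all genes tested 9.57% were called, 4.37% higher and 5.2% lower. At an adjusted p under 0.05, 21 of the 413 were higher and 4 lower, beside 247 and 295 of all 11727 genes tested. Whether the trend on GC content accounts for the side on which the family lay was not tested. *Snai3*, the third Snail gene, had 57 and 48 counts in Scrambled and 47 and 68 counts in Itgb6-siRNA. Its groups overlapped, with a log2 fold change of 0.20 ± 0.29 (SE) and an adjusted p of 0.774 by edgeR. *Snai2*, which encodes Slug and lies on chromosome 16 from 14705852 to 14709385, had 0 counts in all 4 libraries. At these depths its level was therefore at most 0.174 to 0.194 CPM, and no difference between the groups was detectable. The Snail family of these cells was represented by *Snai1* and *Snai3* transcripts.

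The bHLH factors differed between the paralogs. *Twist1*, on chromosome 12 from 33957671 to 33959829, had 88 and 73 counts in Scrambled and 55 and 83 in Itgb6-siRNA. The lowest and the second highest library were both Itgb6-siRNA libraries, so the groups overlapped. Its log2 fold change was -0.16 ± 0.25 (SE), with a 95% interval of -0.67 to 0.36, and was 0.03 without Scrambled replicate 2 and 0.07 without Itgb6-siRNA replicate 1, so its sign was not fixed by these libraries.

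*Twist2*, also known as Dermo1 and located on chromosome 1 from 91801461 to 91848028, had 17 and 18 counts in Scrambled and 35 and 30 in Itgb6-siRNA. Both Itgb6-siRNA libraries were above both Scrambled libraries, which had nearly the same level, 1.04 CPM each. Mean FPKM was 0.788 ± 0.00141 (SD, n = 2) in Scrambled and 1.51 ± 0.229 (SD, n = 2) in Itgb6-siRNA. The log2 fold change was 0.96 ± 0.43 (SE), with a 95% interval of 0.09 to 1.84, or 1.95-fold, and 0.80 to 1.11 when each library was left out. *Twist2* no longer passed the thresholds of the study without any 1 of the 4 libraries, nor with DESeq2. An antisense gene, *Gm29100*, overlaps an exon of *Twist2* in GENCODE vM21 and is not in the deposited table. The reads carry no strand information, so reads of that gene could not be told apart from those of *Twist2*.

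Of 107 bHLH genes in the deposited annotation 51 were tested, and 5 were lower and 3 higher at the thresholds of the study, which is 15.7% of them beside the 9.57% of all genes tested. The lower genes were *Bhlhe41*, *Tcf3*, *Mnt*, *Srebf2* and *Srebf1*, at log2 fold changes between -0.42 and -0.30, and the higher ones were *Twist2*, *Clock* at 0.52 and *Sim1* at 0.42. With the GC and length trends removed *Tcf3*, *Mnt*, *Srebf2*, *Srebf1* and *Sim1* were not called, while *Bhlhe41* and *Clock* kept their calls under all 9 alternatives. Calls were also lost without Scrambled replicate 2 for *Mnt* and *Sim1*, without Itgb6-siRNA replicate 3 for *Srebf2* and *Srebf1*, and without Itgb6-siRNA replicate 1 or with DESeq2 for *Sim1*. *Twist2* was second from the highest log2 fold change among the 51, after *Id4* at 1.17, and *Twist1* was 17th from the lowest. *Id4* passed the filter on low counts only through the Itgb6-siRNA libraries, with 12 and 14 counts against 8 and 4 in Scrambled. The genes of this list are named because it holds few called genes, after their values were seen.

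The Zeb factors are large repressors with zinc fingers at both ends of the protein. *Zeb1* had 1 count in Itgb6-siRNA replicate 1 and 0 in the other 3 libraries, and that 1 count lies in the library that held the collagen reads. The source of that count was not tested. *Zeb2*, on chromosome 2 from 44983632 to 45117395 on the minus strand, had 3 and 1 counts in Scrambled and 3 and 5 in Itgb6-siRNA. The ratio of its pooled levels was 2.10 with a counting interval of 0.563 to 9.54, so a difference was not detectable at this depth. Exons of both genes overlap genes on the opposite strand that the table does not list, *Gm10125* for *Zeb1*, and *Zeb2os* and *Gm27761* for *Zeb2*. Neither Zeb gene passed the filter on low counts.

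*Vim*, on chromosome 2 from 13573927 to 13582826, is the classical marker of mesenchymal cells and of tubule cells that dedifferentiate after injury. Its counts were 12 and 12 in Scrambled and 18 and 28 in Itgb6-siRNA. Both Itgb6-siRNA libraries were above the Scrambled libraries, with replicate 3 the higher. The log2 fold change was 1.00 ± 0.51 (SE), with a 95% interval of -0.03 to 2.03, and 0.70 without Itgb6-siRNA replicate 3 and 1.24 without Itgb6-siRNA replicate 1. The last value is the one without the library that held collagen reads. In Itgb6-siRNA replicate 3, where *Vim* was highest, *Col1a1* had 2 counts, *Col3a1* had 0 and *Dcn* had 1. Whether cells of another type contributed to the *Vim* counts was not tested, and counts this low could not show it. The summed level of the 9 fibroblast and pericyte markers was 0.593 and 0.748 FPKM in Scrambled and 1.30 and 0.697 FPKM in Itgb6-siRNA, with *Acta2* at 0 counts in every library, and 1 of the 9, *Pdgfrb*, passed the filter without being called. Deposited FPKM values of *Vim* overlapped between the groups where its counts did not, at 0.338 and 0.544 in Scrambled and 0.536 and 0.765 in Itgb6-siRNA. The 12 counts of each Scrambled library correspond to an effective length of 2191 bases in replicate 2 and 1281 bases in replicate 3, so the lengths that the authors' FPKM used for *Vim* differed between libraries. In bulk RNA, fewer cells holding a transcript and less of it per cell cannot be told apart, for *Vim* as for each gene here.

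**Figure D3:**
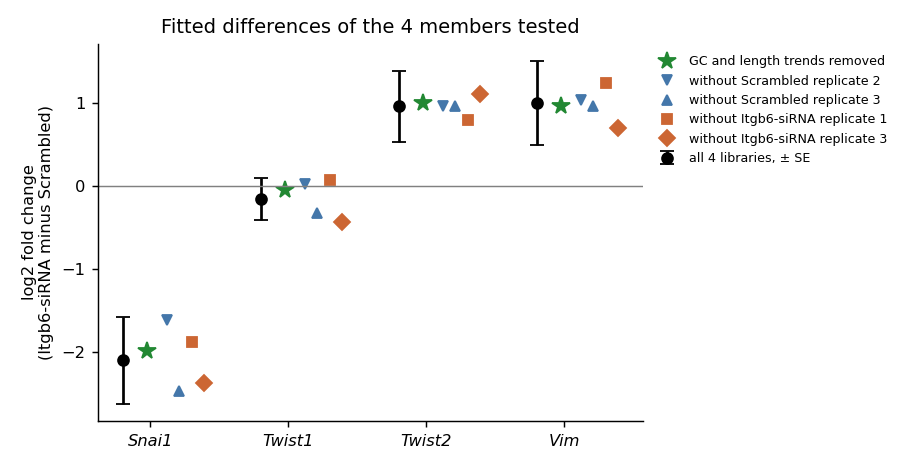
Log2 fold change (Itgb6-siRNA minus Scrambled) of the 4 members that passed the filter, from all 4 libraries with its SE, after removal of the GC and length trends, and without each library in turn. *Snai1* stays between -2.47 and -1.61, *Twist2* between 0.80 and 1.11 and *Vim* between 0.70 and 1.24 when a library is left out, while *Twist1* crosses 0.

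Of the 7 members 4 passed the filter, namely *Snai1*, *Twist1*, *Twist2* and *Vim*. At the thresholds of the study (a fold change over 1.2 at an unadjusted p under 0.05) 9.57% of the 11727 genes tested were called, 5.2% lower and 4.37% higher, and 2 of the 4 members were among them, *Snai1* as lower and *Twist2* as higher. At an adjusted p under 0.05, 4.62% of genes were called, and 1 of the 4 members, *Snai1*, which was no longer among them without Scrambled replicate 2, Scrambled replicate 3 or Itgb6-siRNA replicate 1. For 49.2% of genes, and for 3 of the 4 members, both libraries of one group were above both of the other. As the members were chosen with this contrast known, nothing is read from these counts.

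By mean FPKM over the 4 libraries the order was *Twist1* at 2.80, *Twist2* at 1.15, *Snai1* at 0.777, *Vim* at 0.546, *Zeb2* at 0.0780, *Zeb1* at 0.00275 and *Snai2* at 0. *Twist1* was above every other member in every library. The ranges of *Twist2* (0.787 to 1.68), *Snai1* (0.240 to 1.64) and *Vim* (0.338 to 0.765) show that *Snai1* overlapped with both of its neighbours and did not differ from either beyond their spread, whereas *Twist2* in its lowest library was just above *Vim* in its highest. *Twist2* and *Snai1* changed places between the groups, as *Snai1* was the higher in both Scrambled libraries and *Twist2* in both Itgb6-siRNA libraries. This order depends on length: per kilobase of the longest coding GENCODE transcript *Snai1* ranked 2 and *Twist2* ranked 3, because that transcript of *Twist2* has 2525 bases while the authors' FPKM corresponds to about 1330. In CPM per kilobase of that transcript *Twist2* (0.413 to 0.895) and *Vim* (0.317 to 0.775) overlapped, so their separation held in FPKM only.

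**Figure D4:**
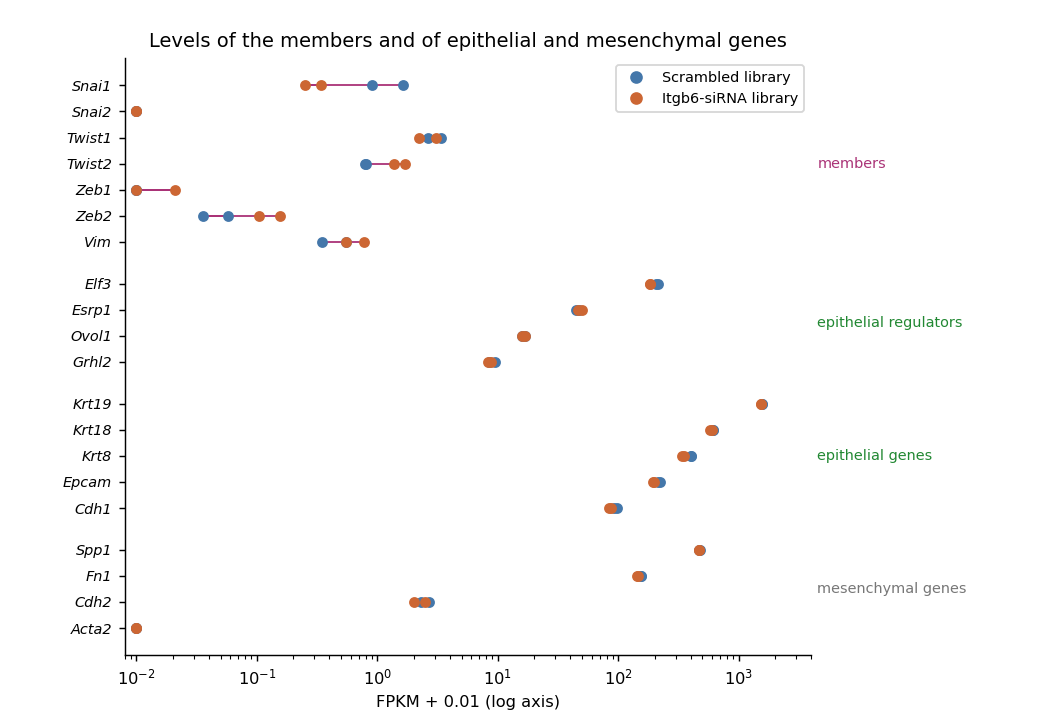
FPKM + 0.01 on a log axis in each library for the 7 members and for epithelial regulators, epithelial genes and mesenchymal genes. The members reach at most 3.34 FPKM, while *Krt19* has a mean of 1547 and *Cdh1* of 90.2.

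Factors known for holding cells in the epithelial state were at unlike levels. Mean FPKM was 197 for *Elf3*, 47.2 for *Esrp1*, an epithelial splicing regulator, 16.4 for *Ovol1*, a repressor of Zeb genes, and 8.76 for *Grhl2*, a grainyhead factor, but 2.86 for *Grhl3*, 0.869 for *Grhl1* and 0.347 for *Ovol2*, which is the range of the members. Of other factors that can induce EMT, *Prrx1*, *Foxc2*, *Gsc* and *Klf8* were at 0 counts in every library, while *Foxc1* was at 4.33 FPKM, *Tcf4* at 2.58 and *Sox9* at 1.06. In the list of 24 other EMT regulators 19 were tested, and 2 fell and 0 rose at the thresholds of the study. That is 10.5% called, near the 9.57% of all genes tested, and the median log2 fold change was 0.05. *Tcf3*, which encodes the E proteins E12 and E47 that pair with Twist factors, fell from 732 and 695 counts to 524 and 516, a log2 fold change of -0.38 ± 0.10 (SE) with an edgeR adjusted p of 0.0159, and was not called with the GC and length trends removed. *Grhl1*, a grainyhead factor, fell from 57 and 74 counts to 34 and 34, with a log2 fold change of -0.87 ± 0.30 (SE) and an edgeR adjusted p of 0.0945, and was not called without Scrambled replicate 3. *Elf3* was below an adjusted p of 0.05 at -0.19, short of the fold threshold, and no longer so with the GC and length trends removed or without either Scrambled library. Of the E proteins, *Tcf12* was the most abundant at 31.1 FPKM, and its log2 fold change was -0.08 with an edgeR adjusted p of 0.574.

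Snail acts through corepressors and is a protein of short life, so the 35 genes of its and Zeb's cofactors and of Snail stability were counted next. Of 34 tested, 3 fell and 1 rose, with a median log2 fold change of 0.00. The called share was 11.8%, near the 9.57% of all genes tested. *Ajuba*, a LIM protein that bridges Snail to its corepressors, fell from 1208 and 1128 counts to 783 and 732, a log2 fold change of -0.55 ± 0.09 (SE) with an edgeR adjusted p of 0.000137. Its call was kept under all 9 alternatives. The related *Wtip* fell by 0.37 on the log2 scale with an edgeR adjusted p of 0.0628, and was not called with the GC and length trends removed. *Limd1*, of the same family, had a log2 fold change of -0.17 with an edgeR adjusted p of 0.402. *Rcor1*, which encodes the CoREST scaffold of the demethylase LSD1, fell by 0.35 with an edgeR adjusted p of 0.0392, and *Kdm1a*, the gene of LSD1 itself, was at -0.05. *Fbxw7*, the substrate receptor of a ubiquitin ligase, rose from 49 and 48 counts to 88 and 74, a log2 fold change of 0.81 ± 0.27 (SE) with an edgeR adjusted p of 0.0720. *Rcor1* was not called without Scrambled replicate 2 or with DESeq2, nor *Fbxw7* without Itgb6-siRNA replicate 1. *Suz12*, of the polycomb complex, was at 0.24 and *Smarca4*, of the SWI/SNF complex, at -0.24, both under an adjusted p of 0.05 and short of the fold threshold, and neither was under it with the GC and length trends removed or without Scrambled replicate 2, nor *Smarca4* without Scrambled replicate 3. *Gsk3b*, *Csnk1a1* and *Btrc*, the kinases and the ubiquitin ligase receptor that mark Snail for degradation, were at -0.11, 0.00 and 0.04, with edgeR adjusted p-values of 0.467, 0.999 and 0.916.

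Of 56 genes of the signals that induce Snail and Twist factors, 45 were tested, 4 fell and 2 rose, with a median of -0.05. The called share was 13.3%, beside 9.57% of all genes tested. *Hmga2*, a chromatin protein that acts with Smads on the *Snai1* promoter, rose from 532 and 554 counts to 842 and 878, a log2 fold change of 0.74 ± 0.09 (SE) with an edgeR adjusted p of 4.64e-06. *Ptgs2*, the inducible cyclooxygenase, rose by 0.46 with an edgeR adjusted p of 3.25e-05. Both calls were kept under all 9 alternatives. The genes that fell were *Srf*, at -0.45, *Bmp2*, at -0.43, the receptor gene *Notch1*, at -0.41, and *Ctnnb1*, which encodes beta-catenin, at -0.28. Their edgeR adjusted p-values were 0.0103, 0.206, 0.0264 and 0.000990. With the GC and length trends removed *Notch1* remained called, and *Srf*, *Bmp2* and *Ctnnb1* did not, the last at -0.26 and so short of the fold threshold. Without Scrambled replicate 2, *Bmp2* and *Ctnnb1* were not called, nor was *Bmp2* with DESeq2 or without Itgb6-siRNA replicate 3. For the TGF-beta branch, which αvβ6 feeds by activating the latent ligand, no gene passed the thresholds: *Tgfb1* was at -0.04, *Tgfbr1* at -0.07, *Tgfbr2* at 0.07, *Smad2* at 0.17, *Smad3* at -0.05 and *Smad7* at -0.10. *Hif1a*, the hypoxia-induced factor, was at 0.16 with an edgeR adjusted p of 0.0724.

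The list of epithelial genes holds known targets of Snail repression, *Cdh1* among them. Of 34 listed 31 were tested, and 1 fell and 0 rose at the thresholds of the study. That is 3.23% called, beside 9.57% of all genes tested. Of the 31, 21 had a log2 fold change below 0, with a median of -0.10, beside 5858 of all 11727 genes tested and a median of 0.00. Whether the list differs from all genes was not tested. The gene that fell was *Spint1*, a protease inhibitor of epithelia, at -0.27 ± 0.09 (SE) with an edgeR adjusted p of 0.0627, and it was not called with the GC and length trends removed, without Scrambled replicate 2 or without Itgb6-siRNA replicate 3. *Cdh1* had 7043 and 7020 counts in Scrambled and 5752 and 6407 in Itgb6-siRNA, a log2 fold change of -0.14 ± 0.05 (SE) with an edgeR adjusted p of 0.117. Both Itgb6-siRNA libraries were below the Scrambled ones. The genes with the highest levels were *Krt19*, *Krt18* and *Krt8*, keratins of simple epithelia, at means of 1547, 601 and 373 FPKM, and their log2 fold changes were -0.01, -0.03 and -0.20. By adjusted p alone 2 genes were lower, *Krt8* and *Llgl2*, a polarity gene, at -0.24, and 1 was higher, *Cldn1*, a tight junction claudin, at 0.25. These 3 calls were all lost once the GC and length trends were removed and without either Scrambled library, those of *Llgl2* and *Cldn1* also without Itgb6-siRNA replicate 3, and that of *Cldn1* with DESeq2 or library size only. In the KEGG adherens junction pathway of the deposited annotation, a list chosen after its values were seen that holds *Snai1*, 62 of 72 genes were tested. Of these 4 were called lower, namely *Snai1*, *Src*, *Insr* and *Ctnnb1*, and 1 rose, *Ptprb*. That is 8.06% called, near the 9.57% of all genes tested. With the GC and length trends removed *Src*, *Ctnnb1* and *Ptprb* were not called, and *Ptprb* was called neither with DESeq2 nor without Scrambled replicate 2, Itgb6-siRNA replicate 1 or Itgb6-siRNA replicate 3. The edgeR adjusted p-values of *Src*, *Insr* and *Ptprb* were 0.00557, 0.101 and 0.213.

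Mesenchymal genes showed no common direction. Of 36 listed 21 were tested, and 1 fell and 3 rose at the thresholds of the study. That is 19% called, beside 9.57% of all genes tested. The median log2 fold change was 0.00, with 0 calls at an adjusted p under 0.05. *Tgfbi*, a matrix protein induced by TGF-beta, rose from 6 and 5 counts to 14 and 21, a log2 fold change of 1.71 ± 0.63 (SE) with an edgeR adjusted p of 0.118. *Tgfbi* passed the filter on low counts only through the Itgb6-siRNA libraries, since both its Scrambled counts are under the minimum of 10. It is counted among the 3 that rose and in the 19% called. *S100a4*, also called FSP1, rose from 45 and 34 counts to 69 and 71, at 0.89 ± 0.29 (SE) with an edgeR adjusted p of 0.0697. *Cdh6*, a cadherin of the kidney, rose by 0.39 and *Tnc*, tenascin C, fell by 0.37, with edgeR adjusted p-values of 0.0679 and 0.0952. Calls of *Tgfbi* were lost without Scrambled replicate 2, Scrambled replicate 3 or Itgb6-siRNA replicate 3 and with DESeq2, that of *S100a4* without Scrambled replicate 3, and those of *Cdh6* and *Tnc* without Scrambled replicate 2. Among the genes with the highest levels were *Spp1*, which encodes osteopontin, at 470 FPKM and *Fn1*, which encodes fibronectin, at 150 FPKM, with log2 fold changes of -0.01 and -0.10. *Cdh2*, which encodes N-cadherin, was at 2.36 FPKM and a log2 fold change of -0.11. Part of this list was therefore abundant in these cells while *Vim* was below 1 FPKM in every library and *Acta2* was at 0 counts.

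**Figure D5:**
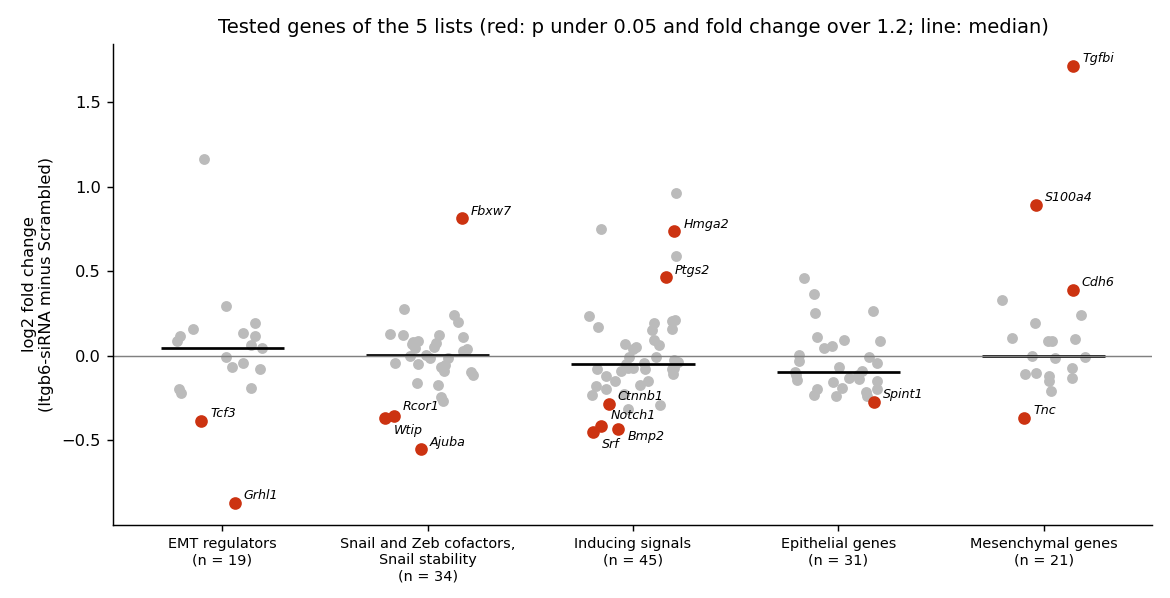
Log2 fold change (Itgb6-siRNA minus Scrambled) of each tested gene of the 5 lists, with genes past the thresholds of the study in red and named, and the median of each list as a line. The medians lie between -0.10 and 0.05, and the called genes number 2, 4, 6, 1 and 4 from left to right. These are 10.5%, 11.8%, 13.3%, 3.23% and 19% of the tested genes of each list, beside 9.57% of all genes tested.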

How the data were processed

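Polyadenylated RNA of 4 libraries was sequenced in pairs on an Illumina NovaSeq instrument without strand information. The authors deposited estimated counts per gene, not normalized, and FPKM values per gene, which they made from the same libraries. The aligner, counting tool, genome build and annotation are not given in the sources used here, and the study's methods state that samples were optimized after a cluster analysis. The deposited files also hold functional annotation, of which the transcription factor families and 1 KEGG pathway were used.

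Estimated counts were rounded to whole numbers (they were not whole for 1447 to 1500 genes per library, and were whole for all members). Genes were kept by filterByExpr (minimum count 10, minimum total 15), leaving 11727 of 22063, normalized by TMM and compared by edgeR's quasi-likelihood method (version 4.0.16, run in R 4.3.3); p-values of all tested genes were adjusted together by Benjamini-Hochberg. The thresholds were those of the study, a fold change over 1.2 at an unadjusted p under 0.05. The study itself reports fewer genes in each direction at them than were called here, and the cause was not tested. The code was tested on simulated data first. The biological coefficient of variation common to all genes was 0.0551. The smallest two-sided permutation p for 2 libraries against 2 is 0.333, so no p below 0.05 can come from relabelling. FPKM values served to compare levels between genes and entered no test. Intervals are at the 95% level, and SEs were derived from the fold change and its F statistic.

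Locations and transcripts are from GENCODE vM21 (GRCm38), promoter sequences from RefSeq (GRCm38.p6), in which 5 of the 6 members looked up had an entry. Either may differ from what the authors used. Alternatives were RLE factors, library size only, DESeq2 1.42.0, no filter, adjusted p-values, removal of GC and length trends by lowess offsets, and leaving out each library. Members and lists were chosen with earlier results of these data known. Named are the members, Itgb6, the genes called in each list (up to 6 per direction), the 3 of highest level among epithelial and mesenchymal genes and the 5 most like Snai1. A gene that this rule takes is not reported here. Other genes are named as members of the lists or after their values were seen.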

Additional observations from a re-analysis of the deposited data

How the results depend on the processing

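Of 163 values under an alternative, 129 stayed near the main value, 32 moved and 2 changed sign. Both that changed sign were of *Twist1* (0.03 without Scrambled replicate 2 and 0.069 without Itgb6-siRNA replicate 1). Near meant within a fixed factor for a count, within the SD between replicates for a log2 fold change, and equal for a rank. It therefore includes 422 lower and 421 higher genes with the GC and length trends removed, against 610 and 512 in the main fit. Genes called lower and higher over the whole table numbered 610 and 512, against 383 and 320 with DESeq2, 295 and 247 by adjusted p, and 402 to 768 and 338 to 645 when a library was left out, the lowest without Scrambled replicate 2. By adjusted p the epithelial list held 2 lower and 1 higher and the mesenchymal list 0 and 0. With the GC and length trends removed 1 EMT regulator, 1 inducing signal and 0 epithelial genes were called lower. Without the filter 6 mesenchymal genes were called higher. With a library left out, the log2 fold change was -2.47 to -1.61 for *Snai1*, -0.43 to 0.07 for *Twist1*, 0.80 to 1.11 for *Twist2* and 0.70 to 1.24 for *Vim*, and the calls were 0 to 1 higher among EMT regulators, 2 to 5 lower and 0 to 2 higher among cofactors, 0 to 3 lower and 0 to 2 higher among epithelial genes, and 0 to 2 lower among mesenchymal genes. Leaving a group with 1 library assumes that it varies as the other group does. Levels per kilobase of the longest coding transcript, chosen after seeing the data because the table gives no gene length, ranked *Snai1* 2 and *Twist2* 3. The cause of these shifts was not tested, beyond the smaller number of libraries or the stricter rule. DESeq2 gave no adjusted p for the members, and none is reported for them. No paired analysis was possible because the groups share only the replicate number 3. With 83 counts of *Snai1* and 70 of *Vim* in all, counting error limits every statement on them.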
